A study of Mus musculus with 4 samples.

Results

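The 10 genes described here are the mouse genes of hepcidin (Hamp and Hamp2), transferrin and its receptor (Trf, Tfrc), the ferritin subunits (Fth1, Ftl1), the iron exporter ferroportin (Slc40a1), ceruloplasmin (Cp) and the metallothioneins (Mt1, Mt2). They were chosen by symbol out of the 32285 genes listed for each library, and all 10 were found. The tissue was frozen liver of male wild-type C57BL6/J mice, an inbred laboratory strain, read by droplet sequencing of single nuclei. There were 2 libraries from aged mice (30 months) and 2 from young mice (2 months), and no agent or altered allele was named for either group. The labels call the libraries replicates without saying that each came from its own animal, so the p-values rest on a spread between libraries that could be technical.

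The liver sets how much iron enters the blood. Hepatocytes secrete hepcidin, a peptide hormone that binds ferroportin and has it degraded, which closes the way out of gut cells, macrophages and hepatocytes. BMP signals that reach SMAD proteins, and interleukin-6 through STAT3, raise hepcidin transcription. Ceruloplasmin oxidises the exported iron, transferrin carries it in plasma, the transferrin receptor takes it into cells, and ferritin shells of heavy and light subunits store it. Metallothioneins are small cysteine-rich proteins that bind zinc, copper and cadmium, and their genes are switched on by the metal-sensing factor MTF1 and by glucocorticoids. Much of the control of iron genes is exerted on the messenger RNA: iron regulatory proteins bind a stem-loop called the iron-responsive element, which holds back translation when it lies in the 5′ UTR and protects the transcript when it lies in the 3′ UTR. Counts of nuclear RNA do not read translation.

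The elements that this control works through were read from the mouse transcripts and are printed here because 4 of the 10 genes carry them. The search asked for an unpaired C, a stem of 5 base pairs (G with T allowed) and the loop CAGTGN with any last base but G, in the UTRs of protein-coding transcripts of GENCODE vM21 (GRCm38, the same assembly as mm10). Fth1 held 1 match in its 5′ UTR (chr19:9982732-9982760, plus strand), Ftl1 held 1 (chr7:45459779-45459807, minus strand) and Slc40a1 held 1 (chr1:45925465-45925493, minus strand). Tfrc held 4 matches in its 3′ UTR, of which the outer pair lay at chr16:32631219-32631247 and chr16:32631710-32631738 (plus strand). Among all genes with such a UTR, 0.110% held a match in the 5′ UTR (23 of 20916) and 0.461% in the 3′ UTR (100 of 21707). No match was found in the UTRs of the other 6 genes, which says only that these letters are not there. The ferritin elements share their stem, and the loop is in capitals in each.
Fth1 5′ UTR: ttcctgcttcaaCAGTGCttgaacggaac
Ftl1 5′ UTR: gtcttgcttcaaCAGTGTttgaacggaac
Slc40a1 5′ UTR: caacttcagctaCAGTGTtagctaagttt
Tfrc 3′ UTR, first: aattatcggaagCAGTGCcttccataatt
Tfrc 3′ UTR, last: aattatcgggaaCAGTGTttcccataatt

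Hamp and Hamp2 lie 17686 bases apart on the minus strand of chromosome 7 (chr7:30942368-30944032 and chr7:30922372-30924681), and their promoters are shown because the genes were read at very different levels. The promoter windows of RefSeq (GRCm38.p6, 250 bases before to 50 after the start) were 91.1% identical in a global alignment (276 of 303 columns). Capitals mark the site through which SMAD proteins act on hepcidin promoters (GGCGCC) and the STAT3 site (TTCTTGGAA), searched on both strands. Both were present in the Hamp window, 109 and 97 bases before the start. The Hamp2 window held the STAT3 site, 94 bases before the start, and no GGCGCC. In the alignment the site differs by G4A, counted from 1 at the 5′ end of GGCGCC with the Hamp base first. Distances are from the RefSeq start. For Hamp2 that start lies inside the gene as annotated above, whose minus-strand start is at 30924681 while the window reaches only to 30924431. Of 32851 mouse promoter windows, 11.9% held GGCGCC and 0.417% held TTCTTGGAA. A match describes letters in a window and is not evidence of binding.
Hamp, chr7:30943980-30944279, minus strand: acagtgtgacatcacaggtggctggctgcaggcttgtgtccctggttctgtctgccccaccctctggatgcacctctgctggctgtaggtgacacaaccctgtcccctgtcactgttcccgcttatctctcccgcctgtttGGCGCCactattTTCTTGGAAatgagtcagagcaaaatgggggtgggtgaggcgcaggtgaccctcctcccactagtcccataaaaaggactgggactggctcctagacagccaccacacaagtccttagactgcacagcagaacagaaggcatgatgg
Hamp2, chr7:30924132-30924431, minus strand: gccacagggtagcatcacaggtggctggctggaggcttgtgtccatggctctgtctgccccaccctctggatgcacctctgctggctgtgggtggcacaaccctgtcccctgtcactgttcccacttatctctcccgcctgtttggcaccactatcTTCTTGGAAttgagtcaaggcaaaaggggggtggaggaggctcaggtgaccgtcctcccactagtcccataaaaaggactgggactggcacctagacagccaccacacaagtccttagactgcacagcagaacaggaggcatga

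Mt1 and Mt2 lie 5513 bases apart on the plus strand of chromosome 8 (chr8:94179082-94180327 and chr8:94172664-94173568), and their promoters are shown because the genes were high in the same library. Capitals mark the core of the metal response element (TGCGCNC or TGCACNC, both strands), the site of MTF1. The Mt1 window held 3 cores, at 23 bases before the start and at 2 and 20 bases after it. The Mt2 window held 4, at 223, 128 and 50 bases before the start and 4 bases after it. Of the 32851 windows, 25.7% held at least 1 core and 1.97% held at least 3. The windows were 45.5% identical, against 91.1% for the hepcidin pair.
Mt1, chr8:94178839-94179138, plus strand: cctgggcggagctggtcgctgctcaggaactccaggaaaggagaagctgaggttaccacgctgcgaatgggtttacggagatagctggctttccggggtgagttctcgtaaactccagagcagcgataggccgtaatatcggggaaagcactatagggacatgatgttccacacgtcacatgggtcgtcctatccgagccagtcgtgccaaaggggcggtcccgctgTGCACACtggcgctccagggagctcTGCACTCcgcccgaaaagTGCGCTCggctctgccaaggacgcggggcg
Mt2, chr8:94172368-94172667, plus strand: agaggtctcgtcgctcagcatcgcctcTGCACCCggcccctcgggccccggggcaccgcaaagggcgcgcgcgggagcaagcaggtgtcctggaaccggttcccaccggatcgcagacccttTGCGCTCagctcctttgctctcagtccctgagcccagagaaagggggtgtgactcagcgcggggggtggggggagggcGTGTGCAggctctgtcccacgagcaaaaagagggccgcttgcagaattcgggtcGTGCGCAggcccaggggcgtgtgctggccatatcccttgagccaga

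The remaining genes were annotated at chr16:32608920-32632794 (Tfrc, plus strand), chr9:103204001-103230444 (Trf, minus strand), chr19:9980598-9985098 (Fth1, plus strand), chr7:45457944-45459884 (Ftl1, minus strand), chr1:45908068-45926523 (Slc40a1, minus strand) and chr3:19957054-20009145 (Cp, plus strand). Several share sequence with a neighbour or a copy. The long noncoding gene Gm44662 covers both Hamp and Hamp2 on the opposite strand, Hps3 overlaps 13201 bases of Cp on the opposite strand, and Gm45774 runs antisense to 749 bases of Mt2. Whether the authors counted by strand is not given in the sources used here, so reads of these pairs may not be separated. Hamp and Hamp2 are closely related copies, and the ferritin copy Ftl1-ps1 is listed beside Ftl1, so reads may be split between the copies and the counts of Hamp2 and Ftl1 are uncertain.

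The aged libraries held 38457709 and 54777101 UMIs (unique molecular identifiers, each marking 1 captured RNA molecule), against 11799751 and 17809372 in the young libraries, and after filtering 7216 and 11892 nuclei were kept in the aged libraries, against 1935 and 12219 in the young. Pairs of libraries shared 8 to 67 cell barcodes. Clusters were named from marker genes for the classes other than hepatocytes. Clusters where no other class's markers stood out were taken as hepatocyte-like, by default where at least 3 hepatocyte markers were near or above their level in the other nuclei. No score limit was set for them, and their hepatocyte score, the mean log2 ratio of the markers to all kept nuclei, ran from -0.52 to 0.53. None of the 10 genes entered the clustering. All 13 hepatocyte markers were detected in the hepatocyte-like nuclei of every library, at a sum of 27496 and 27591 CPM (counts per 1e+06 UMIs of the nuclei summed) in the aged libraries, against 39873 and 32328 CPM in the young. The libraries of a group differed far more than sampling noise allows: chi-square per degree of freedom over genes was 125 between the aged and 68.7 between the young hepatocyte-like sums. Aged library 1 stood apart from the rest. Its largest hepatocyte-like cluster (2552 nuclei, median of 909 UMIs and 2.5% mitochondrial UMIs) was led by Ccdc152, Orm1, Hpx, Orm2 and Mt1, so results were also computed without it and without 2 like clusters, 1 mostly of aged library 2 and 1 mostly of young library 2.

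No member passed the test between aged and young hepatocyte-like nuclei, and the libraries of one age lay far apart for most of them. The test was edgeR's quasi-likelihood F test on summed counts with Benjamini-Hochberg adjustment over all 15339 genes, of which 7 passed an adjusted p of 0.05 (0.0456%); 2832 genes had an unadjusted p under 0.05, none of them a member. DESeq2 called 792 genes and again 0 of the 10 members. The median log2 fold change of the 10 members was 0.79, against -0.02 over all genes tested, with 7 of 10 positive. This lean depended on aged library 1. Without it, Trf (-0.01), Fth1 (-0.88), Mt1 (-3.49) and Mt2 (-3.43) turned negative, while Hamp (0.45), Cp (0.23) and Slc40a1 stayed positive.

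Hamp, the hepcidin gene, had 2165 and 609 CPM in aged hepatocyte-like nuclei, against 229.7 and 720.2 CPM in young ones. The groups overlapped, since aged library 2 fell below young library 2. The log2 fold change was 1.65 (SE 0.73, adjusted p = 0.286, edgeR), and it was 2.53 when young library 2 was left out. Without aged library 1 it was 0.45. Hamp2, the second hepcidin gene of mice, had 6.43 and 0.529 CPM in aged nuclei, against 2.45 and 8.28 CPM in young ones, and its log2 fold change of -0.56 had an SE of 1.04. Per kilobase of the longest coding transcript (410 and 437 bases), Hamp stood at 5281 and 1486 CPM per kb in the aged libraries and 560.2 and 1757 CPM per kb in the young. Hamp2 stood at 14.7 and 1.21 CPM per kb in the aged libraries and 5.61 and 18.9 CPM per kb in the young. A UMI marks a molecule whatever its length, and whether introns were counted is not given. The scaling per kilobase is therefore a description and not a correction. With and without it, Hamp was read at the higher level in 4 of 4 libraries.

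Slc40a1, the exporter that hepcidin acts on, had 179.7 and 208 CPM in aged hepatocyte-like nuclei, against 120.0 and 214 CPM in young ones (log2 fold change 0.27, SE 0.34). These 4 values lay closest together in the set apart from those of Tfrc. Cp, whose product oxidises iron as it leaves cells, had 1019 and 373 CPM in aged nuclei, against 269.9 and 388 CPM in young ones. Its log2 fold change of 1.14 (SE 0.54, adjusted p = 0.306, edgeR) was 0.23 without aged library 1.

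Trf, the plasma iron carrier, had 2590 and 1152 CPM in aged hepatocyte-like nuclei, against 491.5 and 2002 CPM in young ones (log2 fold change 0.70, SE 0.72, and -0.01 without aged library 1). Tfrc, the receptor that takes transferrin up, had 21.6 and 21.1 CPM in aged nuclei, against 34.3 and 23.8 CPM in young ones. On this unscaled scale it was the only member whose groups did not overlap, which 50.5% of the genes tested also showed. After the TMM scaling of the fit Tfrc overlapped (22.2 and 21.0 CPM in aged nuclei, against 37.1 and 21.7 CPM in young ones) and Cp did not (1047 and 372 CPM in aged nuclei, against 292 and 353 CPM in young ones). The log2 fold change of Tfrc, -0.44 (SE 0.36, adjusted p = 0.560, edgeR), became 0.0053 without young library 1. In stellate/fibroblast-like nuclei Tfrc had 8.10 and 11.4 CPM in the aged libraries, against 25.8 and 21.5 CPM in the young, from 5 to 33 UMIs a library (log2 fold change -1.14, SE 0.48, adjusted p = 0.239, edgeR). In these nuclei 12 hepatocyte nuclear transcripts stood at 0.443 and 0.260 of the hepatocyte-like level in the aged libraries, against 0.584 and 0.707 in the young, and stellate/fibroblast markers summed to 12461 and 17988 CPM in the aged, against 9594 and 6746 CPM in the young. Their part in the level of Tfrc was not tested.

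Fth1, the ferritin heavy subunit that oxidises stored iron, had 232 and 40.8 CPM in aged hepatocyte-like nuclei, against 36.5 and 123 CPM in young ones. The log2 fold change of 0.88 (SE 0.79) was -0.88 without aged library 1 and 1.69 without aged library 2. Ftl1, the light subunit, had 422 and 187 CPM in aged nuclei, against 157 and 503 CPM in young ones, a log2 fold change of -0.02 (SE 0.58). For both subunits the order of the libraries mixed the ages.

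Mt1 showed the widest spread in the set. It had 88.1 and 1.31 CPM in aged hepatocyte-like nuclei, against 7.21 and 24.0 CPM in young ones, and the 2 aged libraries held its highest and its lowest value. Mt2 had 17.5 and 0.374 CPM in aged nuclei, against 1.73 and 6.97 CPM in young ones, with the libraries in the same order as for Mt1. The log2 fold changes were 1.61 (SE 1.37) for Mt1 and 1.11 (SE 1.33) for Mt2. Without aged library 1 they were -3.49 and -3.43, and without aged library 2 they were 2.64 and 2.14. Each of these fits holds a single aged library and cannot read the spread between aged libraries, so only the fold changes are given. The direction of both with age changed with the aged library that was kept.

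**Figure D1:**
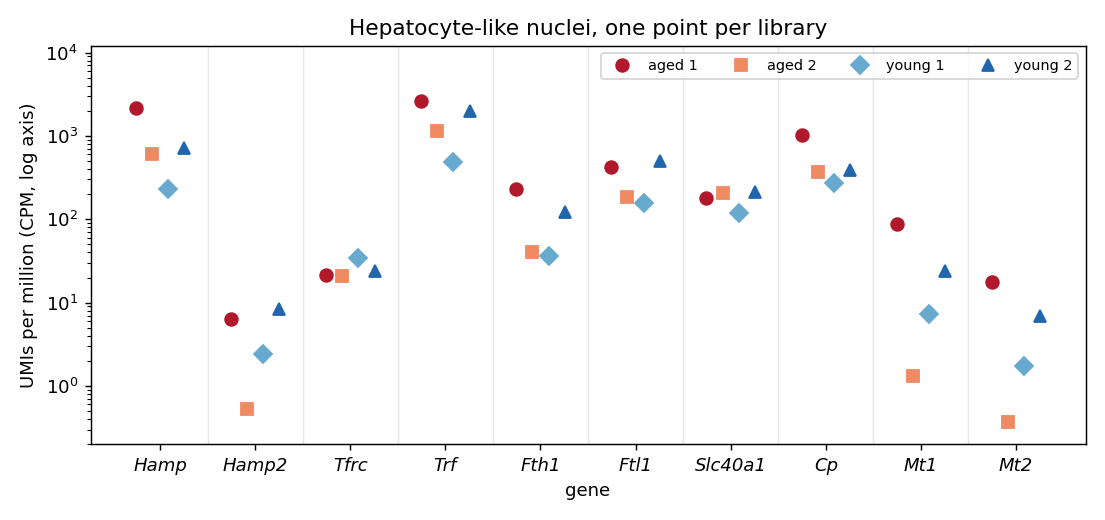
CPM (log axis) of each of the 10 genes in hepatocyte-like nuclei, 1 point per library, aged libraries left of young ones. Aged library 1 was the highest for Hamp, Trf, Fth1, Cp, Mt1 and Mt2, while aged library 2 held the lowest Hamp2, Mt1 and Mt2.

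Other genes of the same pathways were read from 6 lists. No gene of any list passed the test between aged and young hepatocyte-like nuclei. Over the 6 lists together, 13 of 84 genes tested had an unadjusted p under 0.05 (edgeR), against 2832 of 15339 over all genes. The counts of single lists below are to be read beside that share. In the list of hepcidin control (18 genes tested, 1 with an unadjusted p under 0.05, median log2 fold change -0.26), the genes of at least 10 CPM with the smallest p were Smad6 (0.80, SE 0.32) and Smad7 (0.62, SE 0.38), inhibitors of BMP signalling that it induces itself, and Smad5 (-0.63, SE 0.30), which carries the BMP signal. Smad6 had 24.4 and 23.05 CPM in aged nuclei, against 11.97 and 16.2 CPM in young ones. In the list of iron and haem handling (27 tested, 5 under 0.05, median -0.19), they were Pcbp1, an iron chaperone (-1.72, SE 0.35), Steap4, a metalloreductase (2.51, SE 0.63), and Slc25a37, which carries iron into mitochondria (-1.21, SE 0.38). Steap4 had 671 and 177 CPM in aged nuclei, against 59.5 and 96.1 CPM in young ones.

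The list of metallothioneins and zinc transport (12 tested, 1 under 0.05, median -0.22) was led by Slc30a10, a manganese exporter (-1.25, SE 0.49), with the zinc transporters Slc39a7 (-0.74, SE 0.33) and Slc39a11 (0.63, SE 0.41) next. Of the STAT3 acute-phase genes (15 tested, 1 under 0.05, median 0.24), Fgb, a fibrinogen chain, had 1687 and 478 CPM in aged nuclei, against 202 and 512 CPM in young ones (log2 fold change 1.69, SE 0.68). Young library 2 lay between the aged libraries, as for Hamp. Next in that list were Itih3 (-0.97, SE 0.42) and Fga, another fibrinogen chain (1.38, SE 0.66). Of the glucocorticoid targets, 8 were tested and 3 were under 0.05 (median -0.65). Dusp1, a phosphatase of MAP kinases, had 13.7 and 11.2 CPM in aged nuclei, against 110.2 and 63.6 CPM in young ones (log2 fold change -2.80, SE 0.43, adjusted p = 0.095, edgeR). Tat, which degrades tyrosine, had 129 and 263 CPM in aged nuclei, against 1692 and 864 CPM in young ones (-2.73, SE 0.60, adjusted p = 0.137, edgeR). Tsc22d3 followed at -0.66 (SE 0.35). The targets did not share a single order of libraries. Per1, for example, had 36.7 and 30.8 CPM in aged nuclei, against 25.5 and 87.2 CPM in young ones. Mt1 and Mt2 were both highest in aged library 1. The part of the glucocorticoid targets in the levels of Mt1 and Mt2 was not tested. Among the immediate early genes that tissue handling induces (4 tested, 2 under 0.05, median 0.84), Egr1 had 222 CPM in aged library 1 and 9.66 CPM in aged library 2, against 3.75 and 4.04 CPM in the young libraries (log2 fold change 4.95, SE 1.27). Junb (1.03, SE 0.37) and Ier2 (0.65, SE 0.42) were also highest in aged library 1, where Mt1 and Mt2 were highest, while Jun was lowest there, at 7.01 CPM and 11.2 CPM in the aged libraries, against 8.94 and 9.29 CPM in the young. Their part in the levels of Mt1 and Mt2 was not tested.

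Across classes of nuclei, Slc40a1 was highest in macrophage-like nuclei, and Cp was highest in cholangiocyte-like nuclei among classes with at least 20 nuclei in a library. Slc40a1 had 1127 and 999 CPM in macrophage-like nuclei of the aged libraries, against 515 CPM in young library 2. These levels were 6.27 and 4.81 times the hepatocyte-like level in the aged libraries and 2.41 times in young library 2. Young library 1 held 17 macrophage-like nuclei with 33 Slc40a1 UMIs (1361 CPM), too few for a test of this class. The macrophage markers summed to 3700.1 and 3066 CPM in the class in the aged libraries, against 1654 CPM in young library 2, and the 12 hepatocyte nuclear transcripts stood at 0.454 and 0.530 of the hepatocyte-like level in the aged, against 0.846 in young library 2. Nuclei under 50% of that level made up 80.9% and 65.6% of the class in the aged libraries, against 19.8% in young library 2. These values move with the levels and shares of Slc40a1 in the class, and their part in them was not tested. Macrophages of the liver recycle iron from old red cells and release it through ferroportin. Within the class, a cluster led by genes that include Cd5l, Vsig4 and Adgre1 (206 and 184 nuclei in the aged libraries, 45 in young library 2) held 1343 and 1376 CPM in the aged libraries and 1603 CPM in young library 2. Most macrophage-like nuclei of young library 2 lay in 2 other clusters, both led by Clec4f, with 229 nuclei at 358 CPM and 155 nuclei at 536 CPM; the same clusters held 379 and 785 CPM in aged library 2 (21 and 51 nuclei). Different clusters thus held most of the class in the aged libraries and in young library 2. Cd5l, Vsig4 and Adgre1 were also among the leading genes of the Clec4f-led cluster of 229 nuclei. In young library 2 the 12 hepatocyte nuclear transcripts summed to 9960 CPM in the cluster of 45 nuclei. They summed to 20272 and 17713 CPM in the 2 clusters led by Clec4f. Their part in the Slc40a1 levels of these clusters was not tested. A cluster led by Lyz2, Gpr141 and Mctp1 held 111 and 154 CPM in the aged libraries and 130.2 CPM in young library 2, below the hepatocyte-like level in each library. At an equal depth of 1000 UMIs, a UMI of Slc40a1 was seen in 61.9% and 48.2% of macrophage-like nuclei of the aged libraries, against 34.3% in young library 2 (59.9%, 54.2% and 37.3% without thinning). Exact 95% binomial intervals of the thinned shares were 53.5% to 69.8% and 39.7% to 56.8% in the aged libraries and 27.4% to 41.7% in young library 2, and they cover counting error only. The shares in endothelial-like nuclei at that depth were 11.3% and 15.4% in the aged libraries and 19.6% and 23.1% in the young, and those in hepatocyte-like nuclei were 15.8% and 18.4% in the aged and 11.7% and 18.9% in the young.

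Cp had 3470 and 2169 CPM in cholangiocyte-like nuclei of the aged libraries (34 and 101 nuclei), against 1928 CPM in young library 2 (203 nuclei). These were 3.41, 5.82 and 4.97 times the hepatocyte-like levels of the same libraries. Young library 1 held 10 such nuclei with 42 Cp UMIs. No test was made for the classes with under 20 nuclei in a library.

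Hamp is a gene of hepatocytes, and in droplet data free RNA gives UMIs in nuclei that do not express a gene. Endothelial-like nuclei held Hamp at 0.726 and 0.798 of the hepatocyte-like level in the aged libraries, and at 0.836 and 0.871 in the young. A sum of 12 secreted hepatocyte transcripts stood at 0.729 and 0.864 of the hepatocyte-like level in the same aged nuclei, and at 0.937 and 0.783 in the young. A Hamp UMI was seen in 72.2% and 34.7% of hepatocyte-like nuclei of the aged libraries at a depth of 1000 UMIs, against 17.3% and 44.8% in the young (81.8%, 57.3%, 43.5% and 48.2% without thinning). Shallower nuclei were left out, 1511 and 651 in the aged and 66 and 4967 in the young libraries. In endothelial-like nuclei the shares were 55.5% and 32.7% in the aged libraries, against 13.0% and 43.2% in the young (51.1%, 40.9%, 20.3% and 49.0% without thinning). Median depths before thinning were 2162 and 3242 UMIs in aged hepatocyte-like nuclei and 3615 and 928 UMIs in young ones, and 1165 and 1311 UMIs in aged endothelial-like nuclei and 1636 and 985 UMIs in young ones. The 12 hepatocyte nuclear transcripts stood at 0.739 and 0.856 of the hepatocyte-like level in aged endothelial-like nuclei, and at 0.745 and 0.826 in young ones. Hamp differed between clusters of this class: in aged library 1 the largest (225 of 427 nuclei, median of 812 UMIs) held 432 CPM of Hamp and 3739 CPM of the nuclear transcripts, and the next (132 nuclei, median of 5367 UMIs) held 1861 and 21712 CPM. The part of free RNA and of mixed droplets in these values was not tested. Over the shares of hepatocyte-like nuclei an exact two-sided permutation test gave p = 0.667, where 2 against 2 libraries cannot go below 0.33. Aged library 1 also had the highest Hamp level in stellate/fibroblast-like, endothelial-like and macrophage-like nuclei, as it did in hepatocyte-like ones.

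Trf and the ferritin genes were also spread over all classes. In stellate/fibroblast-like nuclei Trf had 1452 and 1136 CPM in the aged libraries, against 579 and 1418 CPM in the young, and in endothelial-like nuclei it had 1820 and 971 CPM in the aged, against 633 and 1437 CPM in the young. Fth1 in macrophage-like nuclei had 371 and 80.4 CPM in the aged libraries, against 158 CPM in young library 2, each above the hepatocyte-like level of its library. Between aged and young libraries, 0 of 10392 genes passed in stellate/fibroblast-like nuclei (0%) and 1 of 10585 in endothelial-like nuclei (0.00945%); 2058 and 1417 genes had an unadjusted p under 0.05, and DESeq2 called 276 and 61. Hamp2 and Mt2 did not pass the filter on low counts there, and none of the other 8 members passed the test in either class. Cp in stellate/fibroblast-like nuclei had 815 and 470.3 CPM in the aged libraries, against 347 and 382 CPM in the young (log2 fold change 0.87, SE 0.39, adjusted p = 0.262, edgeR).

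**Figure D2:**
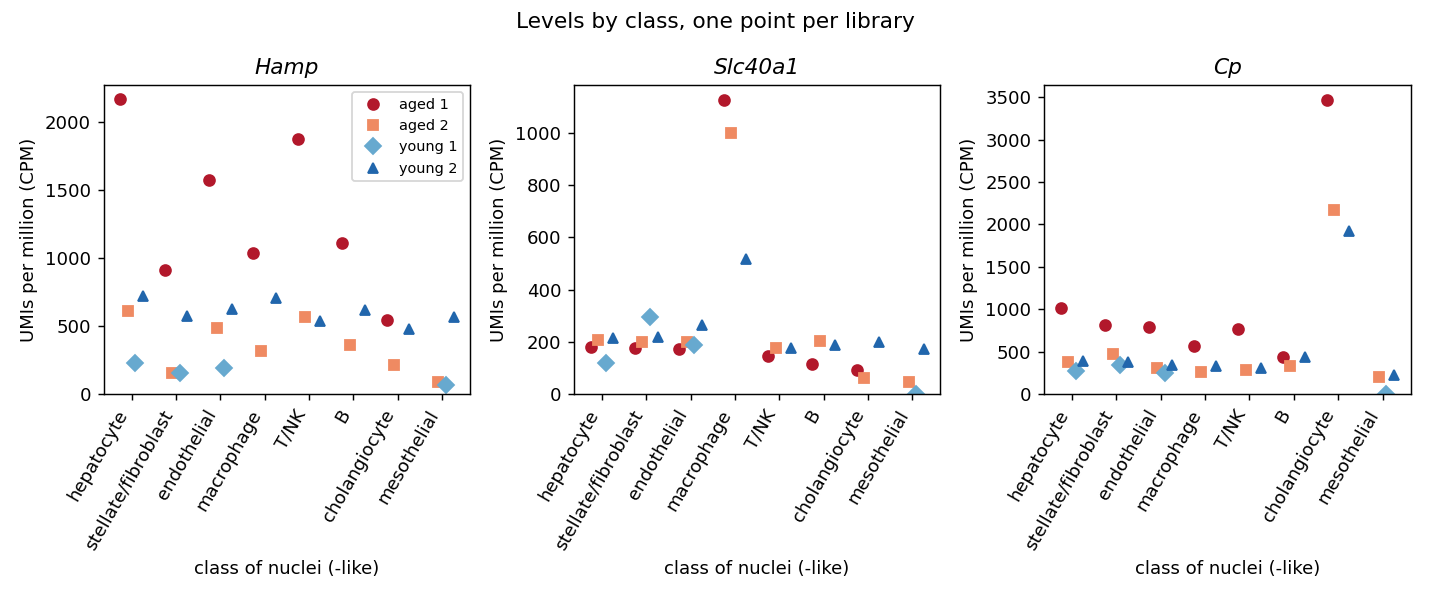
CPM of Hamp, Slc40a1 and Cp by class of nuclei, 1 point per library, aged left of young, for classes with at least 20 nuclei in the library. Aged library 1 had the highest Hamp in each class where it is drawn, Slc40a1 stood out in macrophage-like nuclei (1127, 999 and 515 CPM) and Cp in cholangiocyte-like nuclei (3470, 2169 and 1928 CPM).

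Hepatocytes differ along the path of blood from the portal vein to the central vein, and 6 of the 10 genes were lower at the central end. In each library the hepatocyte-like nuclei were ordered by a score (12 landmark genes of the central end less 12 of the portal end), and the outer 2 of 3 equal parts were compared with the library as a block. Trf, Slc40a1, Cp, Fth1, Mt1 and Mt2 passed as lower in the pericentral part and 0 members as higher (edgeR's quasi-likelihood test, adjusted over 13751 genes). Over all genes 21.5% passed, and 10.6% passed as lower in the pericentral part. The median log2 fold change of the members was -0.43, against -0.02 over all genes tested. Without aged library 1 the count was 3 of 10 (Trf, Slc40a1 and Cp). Without the clusters rich in mitochondrial UMIs it was 5 of 10, with Fth1 no longer passing. Among all genes the main fit called 2960 of 13751. Without aged library 1 the fit called 2347 of 13383, and without those clusters 2740 of 13189.

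Trf had 1894 and 722 CPM in the pericentral part of the aged libraries and 396 and 1629 CPM in that of the young. In the periportal part it had 3246 and 1650.0 CPM in the aged libraries and 677 and 2416 CPM in the young. It was lower in the pericentral part in 4 of 4 libraries (log2 fold change -0.83, SE 0.10, adjusted p = 0.000166, edgeR). Slc40a1 had 146 and 182 CPM in the pericentral part of the aged libraries and 98.9 and 185 CPM in that of the young, against 207 and 234 CPM in the periportal part of the aged and 148 and 236 CPM in that of the young. It was lower in 4 of 4 libraries (log2 fold change -0.45, SE 0.07, adjusted p = 0.00131, edgeR). Macrophage markers summed to 38.8 and 30.8 CPM in the pericentral part of the aged libraries and 36.3 and 107 CPM in that of the young, against 61.9 and 29.7 CPM in the periportal part of the aged and 53.8 and 100.6 CPM in that of the young. Their part in the zone difference of Slc40a1 was not tested.

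Cp was lower in the pericentral part in 4 of 4 libraries (log2 fold change -0.40, SE 0.08, adjusted p = 0.00570, edgeR), with 978 and 300.2 CPM there in the aged libraries and 225 and 345 CPM in the young, against 1121 and 442 CPM in the periportal part of the aged and 328 and 428 CPM in that of the young. Fth1 was lower in 3 of 4 libraries and level in young library 2 (log2 fold change -0.31, SE 0.10, adjusted p = 0.0485, edgeR). It had 205 and 35.1 CPM in the pericentral part of the aged libraries and 27.6 and 123 CPM in that of the young, against 259 and 46.4 CPM in the periportal part of the aged and 43.9 and 123 CPM in that of the young. Its call was lost without aged library 1 (-0.28), aged library 2 (-0.26) or young library 1 (-0.24), with RLE size factors (-0.30) and with 2 zone parts in place of 3 (-0.21), and the value was -0.09 without the clusters rich in mitochondrial UMIs.

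Mt1 had 24.2 and 2.15 CPM in the pericentral part of the aged libraries and 4.32 and 14.5 CPM in that of the young, against 155 and 1.00 CPM in the periportal part of the aged and 6.79 and 33.8 CPM in that of the young. The log2 fold change was -1.81 (SE 0.39, adjusted p = 0.00688, edgeR), from 3 of 4 libraries with lower pericentral levels. Aged library 2 went the other way on 25 pericentral and 11 periportal UMIs. Mt2 had the same pattern (-1.95, SE 0.35, adjusted p = 0.00232, edgeR), with 34 and 5 pericentral UMIs against 190 and 2 periportal UMIs in the aged libraries and 3 and 10 against 4 and 38 in the young. Without aged library 1, Mt1 was at -0.57 (adjusted p = 0.361, edgeR) and Mt2 at -1.16 (adjusted p = 0.206, edgeR).

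The periportal parts also held more transcripts of a cytoplasmic kind. The 12 secreted transcripts summed to 9225 and 6544 CPM in the pericentral part of the aged libraries and 7985 and 15508 CPM in that of the young, against 17256 and 12617 CPM in the periportal part of the aged and 12725 and 21542 CPM in that of the young. Mitochondrial transcripts summed to 6676 and 3029 CPM in the pericentral part of the aged libraries and 3961 and 6535 CPM in that of the young, against 11152 and 8605 CPM in the periportal part of the aged and 9049.6 and 10499 CPM in that of the young. Their part in the zone differences of Trf, Cp, Fth1, Mt1 and Mt2 was not tested. With the clusters rich in mitochondrial UMIs left out, Trf, Slc40a1, Cp, Mt1 and Mt2 still passed and Fth1 did not.

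**Figure D3:**
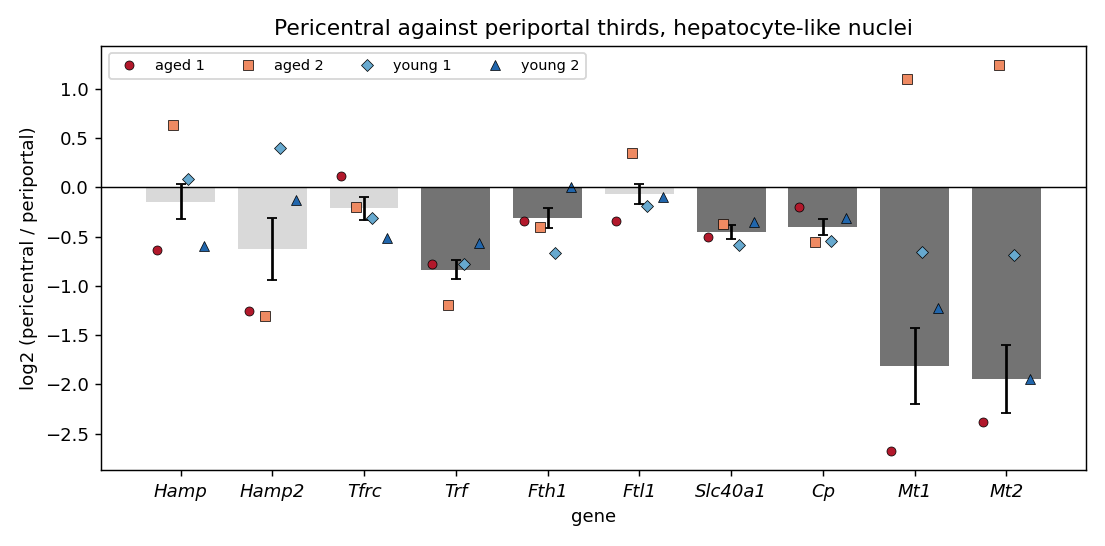
Log2 ratio of pericentral over periportal level for each gene; bars are the fitted values with their SE (dark where the adjusted p was under 0.05), points the 4 libraries, aged left of young. Trf, Slc40a1 and Cp were below 0 in all 4 libraries, while Mt1 and Mt2 were above 0 in aged library 2.

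Hamp did not run along this axis in one direction. In 5 equal bins from periportal to pericentral, aged library 1 had 2409, 2520.4, 2519, 2181.7 and 1318 CPM, and aged library 2 had 424, 467, 688, 1017 and 428 CPM. Young library 1 had 172, 244, 283, 251 and 158 CPM, and young library 2 had 822, 808, 836, 755 and 398 CPM. The most pericentral bin was the lowest in 3 of 4 libraries, and in aged library 2 the most periportal bin was the lowest. The highest bin was bin 2 in aged library 1, bin 4 in aged library 2 and bin 3 in both young libraries. Between the end parts its log2 fold change was -0.14 (SE 0.18), with 2 libraries below and 2 above 0. Hamp2, Ftl1 and Tfrc did not pass either, at -0.63 (SE 0.31), -0.07 (SE 0.11) and -0.21 (SE 0.12). With nuclei of at least 1000 UMIs Hamp2 was called, at -1.13 (adjusted p = 0.0384, edgeR).

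Trf fell along all 5 bins in aged library 1 (3389 CPM in bin 1, 1767 CPM in bin 5), aged library 2 (1830.0 and 677 CPM) and young library 2 (2499 and 1601 CPM), while young library 1 (752 and 401 CPM) had its lowest value in bin 4. Mt1 in aged library 1 had 169.8, 121, 78.3, 41.3 and 16.8 CPM, a range of 10.1-fold from the highest to the lowest bin. In young library 2 it had 32.2, 32.4, 25.7, 14.0 and 16.5 CPM. The zone by age term passed for 11 of 13751 genes (0.08%) and for none of the members. With an aged library left out, the term rests on a single aged library. It cannot then tell age from that library, so its calls are not given by gene.

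**Figure D4:**
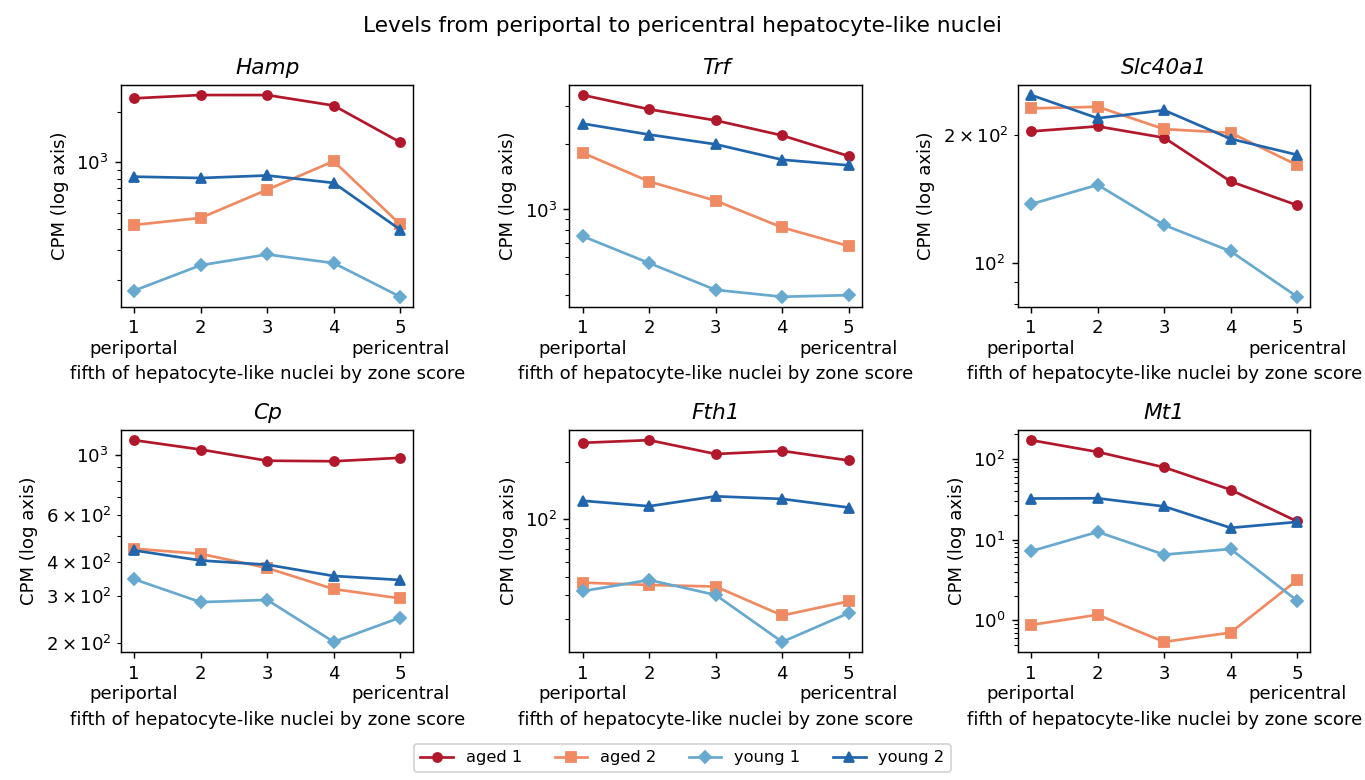
CPM (log axis) of 6 genes in 5 equal bins of hepatocyte-like nuclei from periportal to pericentral, 1 line per library. Trf, Slc40a1 and Cp were lower in the last bin than in the first in each library, Hamp was highest in bins 2 to 4, and Mt1 spanned 169.8 to 16.8 CPM in aged library 1.

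Along the same axis the pathway lists were read in the same fit, in which 10.9% of all genes passed as higher and 10.6% as lower in the pericentral part. Of the hepcidin control genes, 3 of 18 were higher in the pericentral part and 0 lower: Smad6 (log2 fold change 1.23, SE 0.15), the BMP receptor Acvr1 (0.47, SE 0.07) and Neo1, a partner of the coreceptor hemojuvelin (0.33, SE 0.08). Of the iron and haem handling genes, 7 of 27 were higher and 5 lower. Blvrb, which reduces the haem product biliverdin (2.20, SE 0.12), Fbxl5, the iron sensor that removes iron regulatory proteins (0.57, SE 0.13), Slc25a37 (0.41, SE 0.09), the iron transporter Slc11a2 (0.37, SE 0.11), Alas1, which starts haem synthesis (0.33, SE 0.10), the receptor Lrp1 (0.30, SE 0.07) and Ireb2, an iron regulatory protein (0.27, SE 0.08), were higher in the pericentral part. Hpx and Hp, plasma proteins that bind haem and haemoglobin (-1.42, SE 0.09, and -1.25, SE 0.12), the metalloreductase Steap2 (-2.29, SE 0.24) and the metal importers Slc39a14 (-0.45, SE 0.08) and Slc39a8 (-0.49, SE 0.14) were lower. Without aged library 2 this list had 3 higher and 4 lower, and without aged library 1 it had 5 higher and 4 lower of 26.

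Of the metallothionein and zinc list, Slc30a10 (-1.36, SE 0.10) and Slc39a11 (-0.67, SE 0.15) were lower in the pericentral part, 2 of 12, and none was higher. Slc39a10, Mtf1 and the other tested members of that list did not pass. Of the STAT3 acute-phase genes, 8 of 15 were lower and 0 higher, among them Orm1 (-1.24, SE 0.10), Itih4 (-0.95, SE 0.10), Fgb (-0.73, SE 0.08) and Stat3 itself (-0.33, SE 0.09). Fgb belongs to the 12 secreted transcripts that were higher in the periportal parts. Orm1, Hpx and Hp were among the leading genes of the largest hepatocyte-like cluster of aged library 1. The part of transcripts of a cytoplasmic kind in the zone differences of the list genes was not tested. Of the glucocorticoid targets, Tat (-0.54, SE 0.09) and Zbtb16 (-0.41, SE 0.12) were lower, 2 of 8. Of the immediate early genes, Egr1 (-1.63, SE 0.26), Fos (-2.03, SE 0.39) and Ier2 (-0.84, SE 0.21) were lower, 3 of 5, and 0 of 4 passed without aged library 1, the library with the 10.1-fold range of Mt1. The part of these genes in the zone difference of Mt1 and Mt2 was not tested.

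Genes whose profile over the 20 library bins was most like each member were ranked by Pearson's r, centred within each library, among 9037 genes; the points share libraries and the coefficients are descriptions. For Hamp these were Gm44662 (r = 0.91), the gene that covers Hamp on the opposite strand, Ces1b (0.85) and Lgals9 (0.85). For Trf they were mt-Co1, Ambp and mt-Nd2 (0.98 each), 2 of them mitochondrial transcripts. For Slc40a1 they were Heg1, Smyd2 (0.96 each) and Etnppl (0.95), and for Cp they were Suclg1 (0.93), Ror1 (0.92) and Gc (0.90). For Fth1 they were H2-Q4 (0.93), Gapdh (0.88) and Gm5089 (0.87), and among those most like Mt1 were Gss and Rell1 (0.83 each). Ftl1 was most like Mt1 (0.75), and Tfrc most like Unc119b (0.83). Among the members, Trf and Cp ran closest (0.87), and Hamp was near 0 with Trf (0.06), Fth1 (-0.05) and Cp (-0.05).

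Mt1 and Mt2 were also read together in single nuclei. In aged library 1, at 1000 UMIs per nucleus, 6.96% of the nuclei with a UMI of Mt1 also had one of Mt2, against 1.73% of the rest (359 nuclei with Mt1, 88 with Mt2 and 25 with both). In young library 2 the shares were 3.33% and 0.349%, on 3 nuclei with both. In aged library 2, 2 of 9 nuclei with Mt1 had Mt2, and in young library 1 it was 0 of 12, with 2 nuclei holding Mt2 without Mt1. For Fth1 and Mt1 in aged library 1, 8.97% of nuclei with Fth1 and 8.97% of those without it had a UMI of Mt1. Nuclei of 1 library share its free RNA and are not replicates, so these shares carry no test.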

How the data were processed

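Nuclear RNA of frozen liver was read in 4 droplet libraries (2 aged, 2 young). The deposited tables hold UMI counts per gene and barcode, which the authors made with Cell Ranger 7.1.0 on mm10, per the submitters' processing notes; whether introns were counted, or strand used, is not given in the sources used here. Barcodes with at least 500 UMIs, 300 genes and at most 5% mitochondrial UMIs were kept, and the highest doublet scores were removed at a rate of 0.8% per 1000 barcodes, since the automatic threshold of Scrublet marked none. Nuclei were clustered in scanpy 1.11.5 (2000 variable genes, 30 components, 20 neighbours, Leiden resolution 1) without the 102 members and list genes, and clusters were named from marker lists, with hepatocyte-like as the default where no other class's markers stood out; the score limits for names were set after seeing the data. Counts were summed per library and class and tested with edgeR 4.0.16 (R 4.3.3; TMM, filterByExpr, quasi-likelihood F test, Benjamini-Hochberg), with DESeq2 1.42.0 as an alternative. SE is the fold change divided by the root of F. CPM is each gene's share of the summed UMIs, unscaled by TMM, so it can rank libraries slightly differently from the fit. Zone landmarks were left out of the genes tested by zone. The tests were checked on simulated counts with the same fixed spread for every gene. That check does not cover the larger spread between these libraries. Hepatocyte-like sums held 6935529 to 32107361 UMIs, and precision between groups is limited by 2 libraries each.

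The members and lists were chosen with earlier results of these data known. All 10 members are named. Of each list, the genes past the threshold, or those of at least 10 CPM with the smallest p, are named. The exception is the STAT3 acute-phase list by zone, where only some of the 8 genes past the threshold are named. Alternatives were RLE factors, DESeq2, no filter, a replicate block, leaving out each library, stricter UMI and mitochondrial limits, no doublet removal, all nuclei, other zone widths and, added after seeing the data, leaving out 3 clusters and a crossed block. One gene among those most like Mt1 is not reported here.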

Additional observations from a re-analysis of the deposited data

Results flagged for a closer look

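The barcodes over 5% mitochondrial UMIs, which entered no comparison (3424 and 843 in the aged libraries, 689 and 868 in the young), held more Trf and Cp in both aged libraries than in either young one. Trf stood at 18055 and 9921 CPM of their non-mitochondrial UMIs in the aged libraries, against 2497 and 7845 CPM in the young. Cp stood at 1727 and 929.8 CPM in the aged libraries, against 483 and 664 CPM in the young. The 12 secreted hepatocyte transcripts summed to 70978 and 42882 CPM in the aged and 28466 and 49329 CPM in the young barcodes, so they did not keep that order in young library 2. The difference was not tested.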

How the results depend on the processing

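Genes called by age in hepatocyte-like nuclei numbered 7, and 792 with DESeq2, 1480 with no filter on low counts, 11 with the replicate block, 158 to 1015 with one library left out, 2 with nuclei of at least 1000 UMIs, 2 at no more than 1% mitochondrial UMIs, 4 over all kept nuclei and 2 without clusters 4, 19 and 20. Members called numbered 0, and 2 with no filter (Hamp and Mt1) and 0 to 3 with one library left out. In stellate/fibroblast-like nuclei 0 genes were called, and 199 with RLE factors, 276 with DESeq2, 931 with no filter and 223 to 737 with one library left out; members called were 0 to 1. In endothelial-like nuclei 1 gene was called, and 61 with DESeq2, 449 with no filter, 22 with the replicate block, 0 to 469 with one library left out and 0 in nuclei low in hepatocyte transcripts; members called were 1 with no filter and 0 to 2 with one library left out. By zone, members called were 6, and 3 to 6 with single libraries left out. They were 7 with nuclei of at least 1000 UMIs (Hamp2 added). They were 5 with RLE factors, with 2 zone parts or without the 3 clusters (Fth1 lost in each). Over all genes, 2960 of 13751 were called by zone. Leaving out aged library 1 gave 2347 of 13383, and aged library 2 gave 2067 of 13688. Leaving out young library 1 gave 2706 of 15160, and young library 2 gave 2592 of 14696. The count was 2930 of 13276 with at least 1000 UMIs and 2949 of 13751 with RLE factors. It was 2829 of 14664 with 2 zone parts and 2740 of 13189 without the 3 clusters. The zone by age term called 11 genes, and 184 with no filter, 28 to 211 with one library left out, 6 with nuclei of at least 1000 UMIs and 5 without the 3 clusters; members called were 0 to 1. With one library left out, an age group holds a single library. The age and zone by age counts of those fits do not read the spread within that group. The cause of the shifts in these counts was not tested.

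The age fold change of Ftl1 (-0.02) was 0.0151 with RLE factors, 0.0155 with DESeq2, 0.0139 with no filter, 0.0261 with the replicate block, 0.0218 with nuclei of at least 1000 UMIs and 0.00046 over all kept nuclei, and -0.73 to 0.89 with one library left out. Leaving out one library gave -3.24 to 0.42 for Hamp2, -0.75 to 0.0053 for Tfrc, -0.0103 to 1.87 for Trf, -0.88 to 1.84 for Fth1, -3.49 to 2.64 for Mt1 and -3.43 to 2.29 for Mt2. With the replicate block, Mt1 was -0.23 and Mt2 was -0.37. By zone, leaving out one library gave -0.41 to 0.0549 for Hamp and -0.21 to 0.0484 for Ftl1, and Ftl1 was 0.10 without the 3 clusters. Trf, Slc40a1 and Cp were called by zone in all 9 alternatives.

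Same-numbered libraries did not deviate together (r = -0.21 over 15339 genes), and the numbers are not said to pair them. A block with crossed numbers called 213, 279 and 3 genes in hepatocyte-, stellate/fibroblast- and endothelial-like nuclei.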
